A study of Rattus norvegicus with 16 samples.

Results

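The genes described here are those of fatty acid oxidation and ketone metabolism in the thoracic aorta of ageing rats. A list of 35 genes was matched to the array by gene symbol. For 30 of them the array carries at least 1 probe set with that symbol alone, 53 probe sets in all, out of 4736 genes and 8740 probe sets on the array other than controls. Crat, Eci2, Etfb, Acaa1a and Oxct1 have no such probe set, and 1 probe set shared by Acaa1a and Acaa1b and 1 shared by Acot1 and Acot2 were not named. The aorta was sampled at 3, 6, 15 and 28 months of age, with 4 rats per age and 1 array per rat, so 16 arrays were measured in all. Each sample was a 1 cm piece of the descending thoracic aorta, taken from rats to which the labels give no strain, sex, genotype or treatment, and the series title speaks of a vessel disease that progresses with age. The labels' protocols do not mention the fat that lies around this vessel. In the array records, arrays of the same replicate number shared a fluidics station, which washes and stains the arrays, a day and a clock time. Such a set of 4 arrays, 1 of each age, is called a run here. Runs 1 and 2 took place on one day (day 1), and runs 3 and 4 on another (day 2), and the arrays of a day are called by its hybridisation day. Run 1, run 2, and runs 3 and 4 together each had chips of a lot of their own. No chip lot was used on both days, so day and lot cannot be told apart.

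Fatty acids are burned in mitochondria. They are first joined to coenzyme A, passed through the mitochondrial membranes as carnitine esters, and then shortened in rounds of dehydrogenation, hydration, a further dehydrogenation and a thiolase step, while the electrons reach the respiratory chain through an electron transfer flavoprotein. Peroxisomes hold a separate set of enzymes for very long and branched chains. Ketone bodies are made from the acetyl-CoA in liver and burned in other tissues, and the pyruvate dehydrogenase kinases switch off the complex that feeds carbon from glucose into the same acetyl-CoA pool. Brown fat, heart and oxidative skeletal muscle are known for high levels of these enzymes, and in rodents the fat around the thoracic aorta is largely brown.

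Promoter sequences are shown for Hadha, Hadhb and Pdk4, whose signals are described below. The changes in signal were found without these sequences, and a link between them was not tested. Hadha and Hadhb, the subunits of the trifunctional protein, lie head to head on rat chromosome 6, so that the RefSeq windows of 300 bases around their starts share 200 bases, read from opposite strands. Pdk4 had the most negative change of the listed genes. In the Hadha and Hadhb windows (GRCr8, chr6:31907551-31907850, plus strand, and chr6:31907451-31907750, minus strand) capitals mark the shared bases. In the Pdk4 window (GRCr8, chr4:34568280-34568579, minus strand) capitals mark CCAAT and GGGCGGGG on either strand.
Hadha: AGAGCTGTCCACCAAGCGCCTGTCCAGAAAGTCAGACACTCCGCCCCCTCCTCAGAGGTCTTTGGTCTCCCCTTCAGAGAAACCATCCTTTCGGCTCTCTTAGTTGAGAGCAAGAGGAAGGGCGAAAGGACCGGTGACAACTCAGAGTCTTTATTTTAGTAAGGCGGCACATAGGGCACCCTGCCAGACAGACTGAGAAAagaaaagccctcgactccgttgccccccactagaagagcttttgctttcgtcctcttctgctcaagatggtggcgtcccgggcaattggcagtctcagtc
Hadhb: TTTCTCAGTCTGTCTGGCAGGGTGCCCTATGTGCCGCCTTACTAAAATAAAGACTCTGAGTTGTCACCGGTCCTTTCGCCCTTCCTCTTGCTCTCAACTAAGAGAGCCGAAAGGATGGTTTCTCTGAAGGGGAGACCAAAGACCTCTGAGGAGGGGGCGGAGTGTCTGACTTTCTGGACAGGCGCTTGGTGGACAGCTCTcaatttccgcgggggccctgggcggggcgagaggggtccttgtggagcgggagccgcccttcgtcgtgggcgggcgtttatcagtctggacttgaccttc
Pdk4: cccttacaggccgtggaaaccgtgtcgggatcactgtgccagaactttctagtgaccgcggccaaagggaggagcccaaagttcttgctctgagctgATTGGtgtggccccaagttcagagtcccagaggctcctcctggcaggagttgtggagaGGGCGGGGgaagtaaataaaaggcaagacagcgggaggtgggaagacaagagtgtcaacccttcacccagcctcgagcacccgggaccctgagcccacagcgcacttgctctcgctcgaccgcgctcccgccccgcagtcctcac
Promoter entries were found for 30 of the 35 listed genes, and those of Acaa2, Acadl, Cpt1b, Decr1 and Ech1 were not matched. CCAAT, searched on both strands, was in 14 of these 30 windows (46.7%), against 37.5% of the 33469 windows in the table. GGGCGGGG was in 11 (36.7%), against 15.2% of all windows. DR1, a pair of AGGTCA copies 1 base apart that is known to bind PPAR receptors, was in 0 of the 30, against 0.0538% of all windows, and its single copy AGGTCA was in 4 (13.3%), against 16.2%. TATAAA was in 0 of the 30, against 14.2%. These are letters in a window and not binding sites.

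The RNA of a pair of arrays stood apart. The ratio of beta-actin's 3′ to 5′ probe sets, a sign of RNA breakdown, stood at 3.20 for the 15 month replicate 4 and at 3.82 for the 28 month replicate 4, whereas it lay between 1.24 and 1.77 for each of the other arrays. Without both arrays 0 member probe sets passed at 28 against 3 months in the fit without the runs (10 had an unadjusted p under 0.05, median log2 change -0.94), against 0.82% of all probe sets, and 9, all lower, passed with the runs as a block (median -1.23), against 8.75% of all probe sets. The results below are over all 16 arrays.

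At 28 months most of these genes had lower signals than at 3 months. By the brightest probe set of each gene, 25 of the 27 genes bright enough to be tested were lower and 2 were higher (Cpt1a and Acsl3), with a median log2 change of -1.15, while the median over all 5244 probe sets tested was 0.0602 and 44.76% of them were lower. The probe sets of Hadh, Bdh1 and Acot1 lay under the limit for testing. No member passed the test in the fit without the runs (limma, adjusted p over all 5244 probe sets, threshold 0.05), in which 26 of the 46 member probe sets had an unadjusted p under 0.05 and 1.28% of all probe sets passed. With the runs as a block, 25 member probe sets passed, 24 lower and 1 higher. Among them were the brightest probe sets of 15 genes that were lower and of 1, Cpt1a, that was higher. Acat1, Cpt1b and Etfa passed by another probe set alone. In that fit 12.3% of all probe sets passed, 5.7% lower and 6.56% higher. The count of 25 rests on few arrays. Leaving out replicate 1, 3 or 4 at 3 months gave 2, 1 or 3 calls, leaving out replicate 1 or 3 at 6 months gave 16, and leaving out replicate 1 or 2 at 28 months gave 1, while the other arrays, left out in turn, gave 18 to 32. The share of all probe sets that passed moved as well, to between 1.32% and 3.28% in the 5 fits with 1 to 3 calls and between 8.92% and 17.8% in the other 11. All 4 arrays at 28 months lay below all 4 at 3 months for 12 of the 27 genes, against 7.3% of all probe sets, and above them for 1, against 10.5%.

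**Figure D1:**
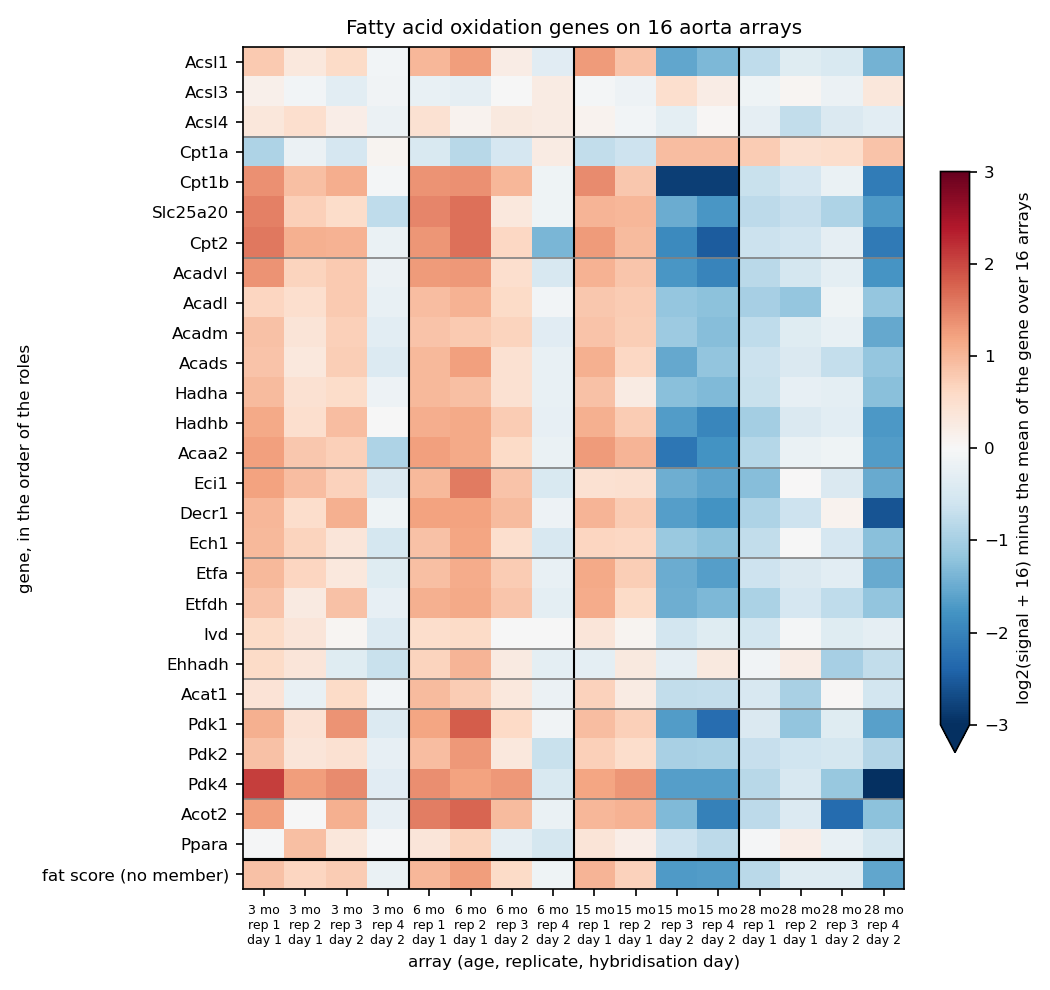
Each row is a gene and each column 1 of the 16 arrays, in the order of age and replicate; colour is log2(signal + 16) minus the gene's mean over the arrays, and values past the lower end of the scale have its last colour. Most rows are blue on the 4 arrays at 28 months and on replicates 3 and 4 at 15 months, and Cpt1a runs the other way; the lowest row is the fat score.

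The aorta pieces differed in fat cell transcripts, and these moved with the listed genes. Fat content was summarised as a score, the average log2 level of 19 measured fat genes that include none of the listed genes (among them Ucp1 of brown fat, the lipase Lipe and the glucose transporter Slc2a4). It averaged 12.35 ± 0.48 on the 3 month arrays, 12.50 ± 0.61 on the 6 month arrays, 11.42 ± 1.47 on the 15 month arrays and 11.04 ± 0.55 on the 28 month arrays (SD, n = 4 each). The score at 28 minus 3 months was -1.31 (exact permutation p = 0.0286, 2-sided, the smallest that 4 against 4 arrays allow). Each measured gene of the score is also on the adipocyte or the brown fat list given next, so these lists and the score are not separate evidence. Of the general adipocyte markers all 24 tested were lower at 28 than at 3 months, with a median of -1.47. Among them Lep (-0.04, adjusted p = 0.922) and Car3 (-0.12, adjusted p = 0.918), both also in the fat score, changed little. With the block 10 of the 24 passed, against 5.7% of all probe sets that passed as lower. Slc2a4 (-1.14, adjusted p = 0.0205) also passed without the runs. The summed signal of the 24 markers was 52310 to 132234 at 28 months and 138407 to 344621 at 3 months. Of the brown fat markers all 7 tested were lower, with a median of -1.65. Their summed signals were 15262 to 45862 at 28 months and 63323 to 126665 at 3 months. With the block 3 passed, Fabp3 (-2.50), Ucp1 (-1.94) and Kcnk3 (-0.95), against 5.7% of all probe sets that passed as lower. S100b of this list changed little (-0.20, adjusted p = 0.875), and Cidea and Adrb3 are on the adipocyte list too. All 12 smooth muscle markers tested were higher, with a median of 0.55 and summed signals of 292361 to 362604 at 28 months and 193559 to 325518 at 3 months, and 0 passed in either fit (2 had an unadjusted p under 0.05). In pieces of whole tissue, fewer cells of a type and less RNA per cell cannot be told apart.

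Once the fat score entered the fit as a covariate, the median of the listed genes lay close to that of all probe sets. The median log2 change of the 27 genes at 28 against 3 months was then -0.0485, with a range of -0.99 to 0.49, and 18 genes were lower and 9 higher, while the median over all probe sets was -0.0164. In that fit 0 member probe sets passed (2 had an unadjusted p under 0.05), against 0.763% of all probe sets. With the block and the fat score together 0 passed as well (3 had an unadjusted p under 0.05), against 0.0953% of all probe sets, and the median over the member probe sets was -0.13. Pdk4 had the most negative change in the fit with the fat score, at -0.99 (adjusted p = 0.589), and was at -1.77 with the block and the fat score together (adjusted p = 0.339).

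**Figure D2:**
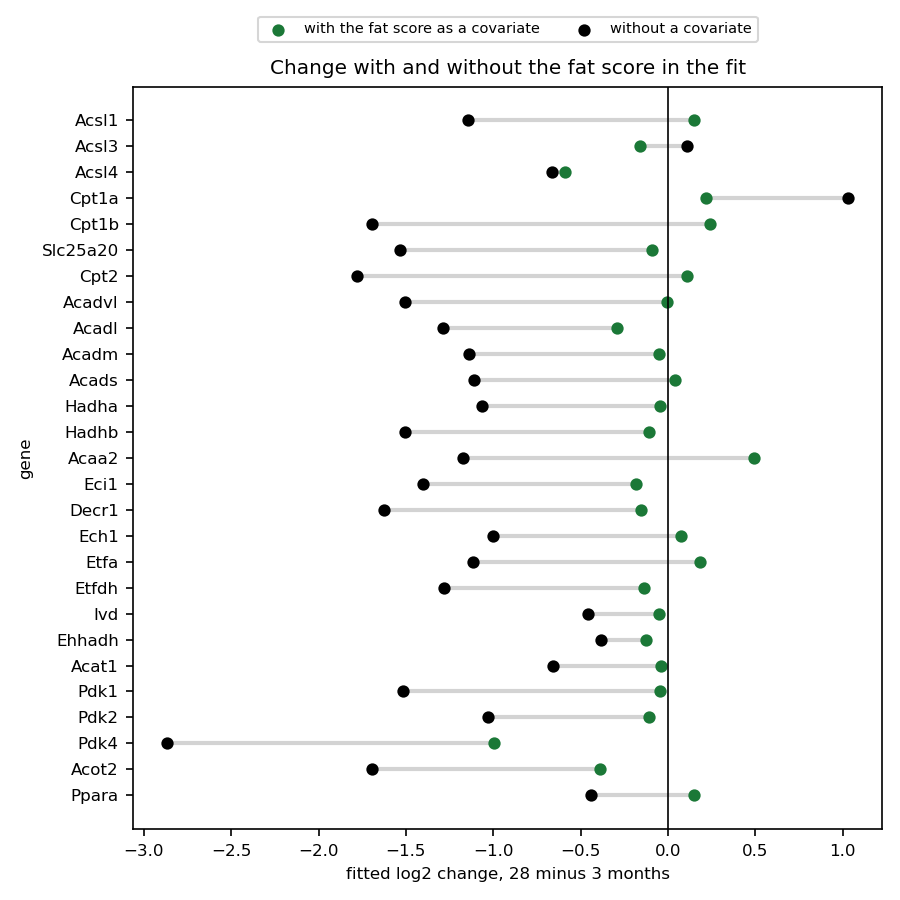
For each gene the log2 change at 28 against 3 months is shown with the fat score as a covariate (green) and without it (black). The median moved to -0.0485 with the covariate, against -1.15 without it, and with it Pdk4 (-0.99), Acsl4 (-0.59) and Acot2 (-0.39) had the most negative values.

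The acyl-CoA synthetases, which attach coenzyme A to fatty acids, did not move as one. Acsl1, the main form of fat and muscle, had signals of 4615, 6095, 5677 and 2923 at 28 months, against 13530, 9759, 11641 and 7336 at 3 months (replicates 1 to 4). All 4 older arrays were below all 4 younger ones. The log2 change was -1.15 (SE 0.55), with an adjusted p of 0.229 and, with the block, 0.0725. Acsl4, which prefers arachidonic acid, had signals of 536.0, 381.8, 478.0 and 513.6 at 28 months, against 831.9, 929.2, 750.6 and 574.6 at 3 months, and here too the ages did not overlap. Its change was -0.66 (SE 0.18), with an adjusted p of 0.0704, the smallest of the 27 genes, and 0.0314 with the block. Its other tested probe set had means of 9.08 at 28 months and 9.21 at 3 months on the log2 scale. Acsl3, a form found on lipid droplets and the endoplasmic reticulum, had signals of 348.6, 399.6, 337.5 and 493.2 at 28 months, against 432.3, 360.7, 303.9 and 358.6 at 3 months. Those ranges overlapped, and the log2 change was 0.11 (SE 0.20, adjusted p = 0.787).

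The carnitine shuttle held the gene that ran against the rest. Cpt1a and Cpt1b encode the liver and the muscle form of carnitine palmitoyltransferase 1, the step that admits long chains to the mitochondrion, and brown fat is known to use the muscle form. Cpt1a had signals of 2313, 1893, 1954 and 2462 at 28 months, against 709.1, 1203, 948.9 and 1447 at 3 months. Every older array was above every younger one. The log2 change was 1.03 (SE 0.37), with an adjusted p of 0.153 and, with the block, 0.0413. Cpt1a passed in 6 of the 16 blocked fits that each left out 1 array. Cpt1b had signals of 3780, 4238, 5197 and 1398 at 28 months, against 15511, 11251, 12838 and 5801 at 3 months, again with no overlap but in the other direction. Its change was -1.70 (SE 0.81), with an adjusted p of 0.228 and 0.0761 with the block, and its other probe set passed with the block (-1.40, adjusted p = 0.0345). Within each array the log2 ratio of Cpt1a to Cpt1b was 2.73 higher at 28 than at 3 months, a comparison chosen after the values were seen and given without a test.

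The other shuttle genes were lower at 28 months. Slc25a20, the carrier that exchanges acylcarnitine for carnitine across the inner membrane, had signals of 1073, 1141, 971.6 and 566.3 at 28 months, against 5327, 3067, 2747 and 1097 at 3 months. The highest older array was just above the lowest younger one. Its log2 change was -1.53 (SE 0.64), with an adjusted p of 0.185 and, with the block, 0.0201, and it passed in 12 of the 16 blocked fits that each left out 1 array. Cpt2, which turns the carnitine ester back into acyl-CoA, had signals of 2284, 2368, 2959 and 811.1 at 28 months, against 10737, 7516, 7375 and 3113 at 3 months. The ages did not overlap, and the change was -1.78 (SE 0.81), with an adjusted p of 0.212 and, with the block, 0.0311.

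**Figure D3:**
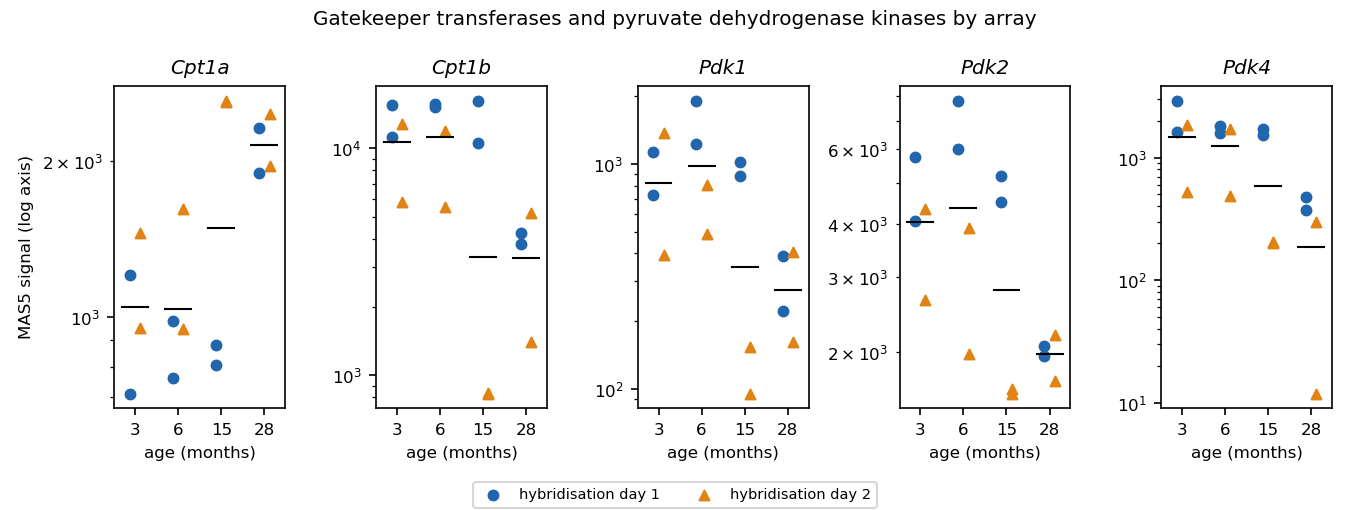
MAS5 signals of Cpt1a, Cpt1b, Pdk1, Pdk2 and Pdk4 on log axes by age; each point is 1 array, shape and colour give the hybridisation day, and the bar is the mean of 4 arrays taken on the log2(signal + 16) scale. Cpt1a was at least 1893 on all arrays at 28 months and on the day 2 arrays at 15 months, and Pdk4 reached its lowest signal, 11.9, on replicate 4 at 28 months.

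All 7 tested genes of the mitochondrial spiral were lower at 28 months, by -1.06 to -1.51 on the log2 scale. With the block 5 of them passed, against 5.7% of all probe sets that passed as lower. Acadvl, Acadl, Acadm and Acads are the acyl-CoA dehydrogenases that open each round, for very long, long, medium and short chains. Acadvl had signals of 2012, 2470, 2870 and 1035 at 28 months, against 9054, 5608, 6125 and 3151 at 3 months, with no overlap. Its change was -1.50 (SE 0.64), with an adjusted p of 0.189 and 0.0348 with the block. Acadm, the medium-chain enzyme, had signals of 6177, 8203, 8940 and 3629 at 28 months, against 19458, 13708, 17260 and 8448 at 3 months. Here 1 older array, replicate 3, was above the lowest younger one. The change was -1.14 (SE 0.47), with an adjusted p of 0.185 and 0.0358 with the block. Acadl changed by -1.29 (adjusted p = 0.146, and 0.043 with the block), and Acads by -1.11 (adjusted p = 0.208, and 0.0582 with the block).

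Hadha and Hadhb, whose shared promoter is printed above, encode the hydratase with the long-chain dehydrogenase and the thiolase of one enzyme complex. Hadha had signals of 4200, 5564, 5437 and 2770 at 28 months, against 12722, 9049, 9787 and 5982 at 3 months. Hadhb had signals of 6195, 9420, 10210 and 3822 at 28 months, against 27964, 17824, 24062 and 12486 at 3 months. Neither gene's ages overlapped. Hadha changed by -1.06 (SE 0.44), with an adjusted p of 0.185 and 0.0362 with the block, and its other 2 probe sets changed by -1.18 and -1.12. Hadhb changed by -1.51 (SE 0.59), with an adjusted p of 0.17 and 0.0413 with the block. Within arrays the log2 ratio of Hadhb to Hadha was lower by 0.45 at 28 months, with values of 0.46 to 0.91 at 28 months and 0.98 to 1.30 at 3 months, in a comparison chosen after the values were seen. The level of such a ratio has no meaning between probe sets, and only its difference between ages is read here. Acaa2, the thiolase of medium chains, changed by -1.17 (SE 0.71), with an adjusted p of 0.335 and 0.124 with the block. Its lowest array at 3 months, at 5749, lay below 3 of the 4 at 28 months. Hadh, the dehydrogenase of shorter chains, was too dim to be tested. Its signals were 66.9, 112.1, 76.5 and 111.2 at 28 months and 246.0, 203.1, 181.7 and 145.3 at 3 months.

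The auxiliary enzymes deal with the bonds of unsaturated fatty acids. The 3 that were tested were lower and passed with the block, as did 5.7% of all probe sets. Eci1, an enoyl-CoA isomerase, had signals of 3716, 9241, 6741 and 3160 at 28 months, against 21018, 17425, 14641 and 6760 at 3 months. Replicate 2 at 28 months overlapped with the younger arrays. The change was -1.40 (SE 0.55), with an adjusted p of 0.17 and 0.0233 with the block. A dim Eci1 probe set did not share this pattern and had means of 7.54 at 28 months and 7.27 at 3 months. Decr1, the dienoyl-CoA reductase, changed by -1.63 (SE 0.65), with an adjusted p of 0.172 and 0.0384 with the block. Its signal of 862.1 on replicate 4 at 28 months was the lowest of the 16 arrays. Ech1, a dienoyl-CoA isomerase, changed by -1.004 (adjusted p = 0.228, and 0.0298 with the block).

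Of the genes that pass the electrons on, Etfdh, the dehydrogenase that hands them to ubiquinone, had signals of 1490, 2056, 1712 and 1278 at 28 months, against 5273, 3502, 5319 and 2451 at 3 months, with no overlap. It changed by -1.28 (SE 0.50), with an adjusted p of 0.17 and 0.047 with the block. Etfa, a subunit of the flavoprotein itself, changed by -1.11 (adjusted p = 0.243, and 0.0603 with the block). Its other probe set passed with the block (-1.25, adjusted p = 0.0438). Ivd, which breaks down leucine through the same flavoprotein, had the smaller change of -0.46 (adjusted p = 0.285, and 0.127 with the block), with signals of 1669 to 2363 at 28 months and 1846 to 3667 at 3 months.

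Peroxisomal oxidation was represented by Ehhadh alone. This enzyme, with hydratase and dehydrogenase activity, had signals of 206.2, 261.3, 104.2 and 128.3 at 28 months, against 341.6, 289.6, 170.3 and 135.7 at 3 months. The ranges overlapped, and the change was -0.38 (SE 0.36), with an adjusted p of 0.555 and 0.401 with the block. The log2 ratio of Ehhadh to Hadha within arrays was 0.68 higher at 28 than at 3 months, with overlapping values. A separate list of 21 tested peroxisomal genes had a median change of -0.48, with 16 lower and 5 higher. With the block 5.7% of all probe sets passed as lower and 6.56% as higher, and 5 lower and 1 higher of these genes passed. They were the thiolase Acaa1b (-1.57), the reductase Decr2 (-1.38), the peroxin Pex19 (-1.37), the plasmalogen enzyme Gnpat (-1.16), the transporter Abcd3 (-0.65) and, as the higher one, the dehydrogenase Idh1 (0.51).

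In ketone metabolism 1 listed gene could be tested. Acat1, the mitochondrial acetoacetyl-CoA thiolase, had signals of 3970, 2811, 5644 and 3784 at 28 months, against 7302, 4749, 8173 and 5232 at 3 months. Replicate 3 at 28 months lay within the younger range. The change was -0.66 (SE 0.34), with an adjusted p of 0.257 and 0.159 with the block, and another of its probe sets passed with the block (-1.15, adjusted p = 0.0233). Its remaining probe set changed by -0.38 (adjusted p = 0.609, and 0.497 with the block). Bdh1, which interconverts the ketone bodies, was dim at all ages, with signals of 13.4 to 21.0 at 28 months and 24.3 to 113.9 at 3 months. Of 4 other ketone genes tested, 1 passed with the block, the monocarboxylate transporter Slc16a1 (-1.90, adjusted p = 0.0475). In that fit 5.7% of all probe sets passed as lower.

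The pyruvate dehydrogenase kinases included the most negative change of all the listed genes. Pdk4, the form that rises in fasting and spares glucose, had signals of 374.3, 480.5, 300.3 and 11.9 at 28 months, against 2909, 1621, 1838 and 526.1 at 3 months. Every older array was below every younger one, and replicate 4 at 28 months stood far below the rest. The log2 change was -2.87 (SE 0.90), a 7.29-fold lower value on the log2(signal + 16) scale, with an adjusted p of 0.111 and, with the block, 0.00757. Without replicate 4 at 28 months the change was -1.91 (adjusted p = 0.26). With the block, Pdk4 passed in all 16 fits that each left out 1 array, with changes of -3.17 to -2.38 and adjusted p-values up to 0.0394. No other listed gene passed in all of them, the next being Slc25a20 with 12 and Eci1, Acadvl, Cpt2, Acsl4 and Ech1 with 11 each. Other genes whose brightest probe set passed with the block held in fewer of these fits. The counts were 10 for Acadm, 8 for Hadha and Pdk2, 6 for Cpt1a, Hadhb, Decr1 and Acot2, 5 for Acadl and 4 for Etfdh.

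Pdk2, the kinase of most tissues, had signals of 1955, 2068, 2191 and 1714 at 28 months, against 5761, 4060, 4338 and 2658 at 3 months. The ages did not overlap, and the change was -1.03 (SE 0.43), with an adjusted p of 0.185 and 0.0414 with the block. Pdk1, the kinase known to respond to low oxygen, had signals of 390.0, 222.3, 406.5 and 161.0 at 28 months, against 1128, 724.2, 1372 and 394.8 at 3 months. Replicate 3 at 28 months was just above the lowest younger array. Its change was -1.52 (SE 0.65), with an adjusted p of 0.194 and 0.0529 with the block. Of 9 tested genes of the pyruvate dehydrogenase complex, which these kinases switch off, and its partners, 8 were lower, with a median of -1.11. With the block 6 passed, against 5.7% of all probe sets that passed as lower. They were the carboxylase Pc (-1.84), the core subunit Dlat (-1.77), Pdhx (-1.72), Pdhb (-1.67), Pdha1 (-1.11) and the phosphatase Pdp2 (-0.88).

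Acot2, a mitochondrial thioesterase that frees fatty acids from coenzyme A, had signals of 433.4, 570.2, 139.6 and 312.5 at 28 months, against 1790, 747.4, 1621 and 635.3 at 3 months, with no overlap. It changed by -1.69 (SE 0.67), with an adjusted p of 0.17 and 0.0414 with the block. Its other probe set, whose ages overlapped, changed by -0.86 (adjusted p = 0.312, and 0.171 with the block). The cytosolic form Acot1 was dim, with signals of 8.38 to 33.5 at 28 months and 14.5 to 163.9 at 3 months. Ppara, the nuclear receptor known to drive many of these genes, had signals of 259.1, 306.8, 227.9 and 178.5 at 28 months, against 261.7, 509.8, 339.4 and 259.7 at 3 months. Its change was -0.44 (SE 0.34), with an adjusted p of 0.453 and 0.225 with the block. Among 9 tested PPAR receptors and partners, Ppara included, 6 were lower and 0 passed in either fit (2 had an unadjusted p under 0.05), with Pparg (-1.33) and Esrra (-0.95) having the smallest p-values, 0.183 and 0.21 after adjustment. Of 15 other known PPAR targets tested, 13 were lower with a median of -1.31. With the block 6 passed, against 5.7% of all probe sets that passed as lower, among them Acaca (-2.61), Fabp3 (-2.50) and Acacb (-2.25). This list shares genes, these among them, with the list of synthesis and supply below.

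**Figure D4:**
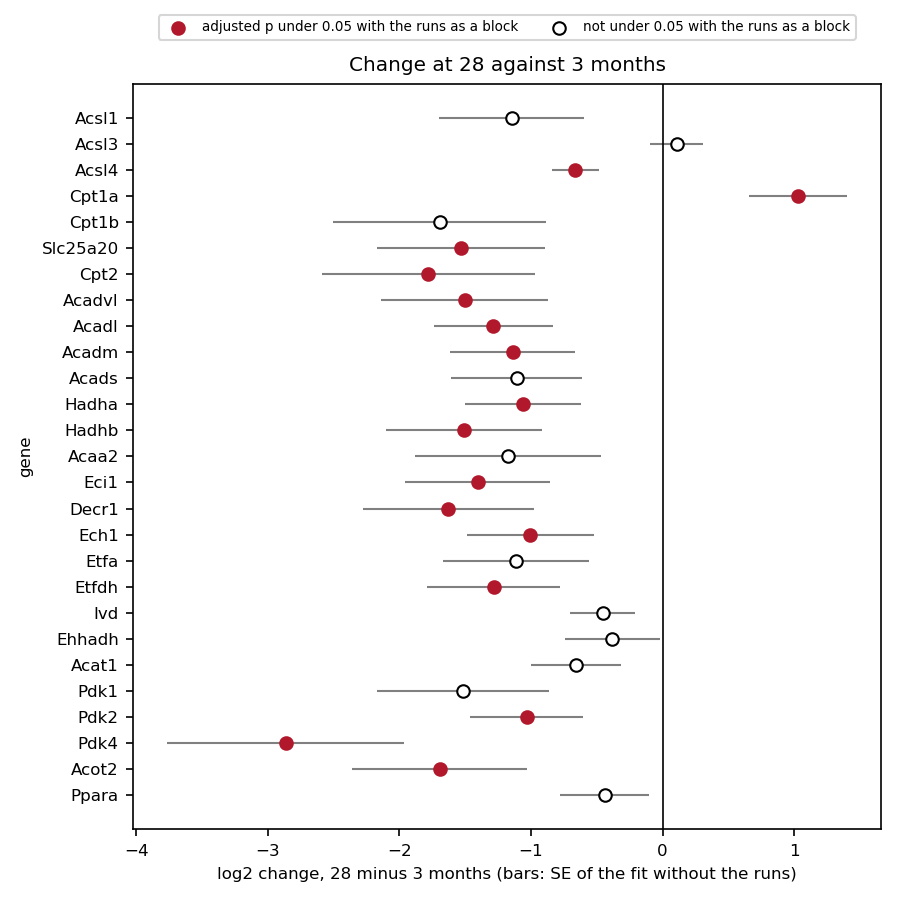
The log2 change at 28 against 3 months is shown for the brightest probe set of 27 genes in the order of their roles, with the SE of the fit without the runs; filled points had an adjusted p under 0.05 with the runs as a block. Pdk4 lies lowest at -2.87 and Cpt1a highest at 1.03.

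Genes of fatty acid synthesis and supply were lower as well. Of 20 tested, 19 were lower at 28 than at 3 months, with a median of -1.47. With the block 11 passed, among them Acsl5 (-2.64), Fasn (-2.32) and Fabp5 (-2.21), against 5.7% of all probe sets that passed as lower. The list mixes synthesis with supply genes such as Cd36, Lpl and Lipe, so it does not set synthesis against oxidation. It shares genes with the adipocyte and PPAR target lists, so these lists are not separate evidence. A further list covers the metabolism of other acyl-CoA esters, not their oxidation alone, and also holds the carnitine transporter Slc22a5. Of its 11 tested genes 10 were lower, with a median of -0.55. With the block 4 of them passed, against 5.7% of all probe sets that passed as lower. They were Auh (-1.22), Pcca (-1.08), Bckdhb (-1.07) and Suclg1 (-1.06). Cardiac and skeletal muscle markers, the other rich source of these enzymes, had 5 lower and 3 higher of 8 tested, a median of -0.23 and summed signals of 4936 to 8940 at 28 months and 5070 to 7750 at 3 months, and 0 passed in either fit (2 had an unadjusted p under 0.05). Liver and kidney markers had summed signals of 2869 to 3578 at 28 months and 2341 to 2774 at 3 months over 5 tested genes, of which 0 passed in either fit and 0 had an unadjusted p under 0.05. Endothelial markers ran both ways, with 4 higher and 2 lower of 6 tested and a median of 0.11 (4 had an unadjusted p under 0.05). The adhesion molecules Vcam1 (2.66) and Icam2 (1.39) were higher and passed with the block, as did 6.56% of all probe sets. Vcam1 also passed without the runs (adjusted p = 0.00953), where 1.28% of all probe sets passed in either direction. The growth factor receptors Flt1 (-1.03) and Kdr (-1.01) did not pass, with adjusted p-values of 0.0979 and 0.114 with the block, and all 4 arrays at 28 months lay below all 4 at 3 months for Kdr.

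The listed genes were also lower at 28 than at 6 months, a comparison that shares the 28 month arrays with the one above. By their brightest probe sets 25 of the 27 were lower and 2 higher, with a median log2 change of -1.36, against 0.13 over all probe sets tested. In the fit without the runs 0 passed (39 member probe sets had an unadjusted p under 0.05), against 0.782% of all probe sets. With the block 20 genes that were lower, and Cpt1a, which was higher, passed by their brightest probe sets. In all, 34 member probe sets passed in that fit, 33 lower and 1 higher, against 17.4% of all probe sets (8.41% lower and 9% higher). Without 1 array that count was 17, 1 and 7 for replicates 1, 2 and 3 at 6 months and 0 and 5 for replicates 1 and 2 at 28 months, and it was between 25 and 39 for the other arrays. The share of all probe sets was 0.248% to 8.47% in those 5 fits and 14.5% to 22.2% in the other 11. The ages did not overlap for 14 genes that were lower, against 6.62% of all probe sets, and for 1 that was higher, against 10.8%. By their brightest probe sets, genes that passed here but not against 3 months were Acsl1 (-1.28, adjusted p with the block = 0.0422), Acads (-1.35, 0.0236), Etfa (-1.36, 0.0243), Acat1 (-0.95, 0.0433) and Pdk1 (-1.78, 0.024). Another probe set of Acat1 and another of Etfa passed with the block against 3 months as well.

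Between 6 and 3 months no member passed in either fit (0 had an unadjusted p under 0.05), and 0% of all probe sets did. At 6 months 22 of the 27 genes were higher and 5 lower, with a median log2 change of 0.13. The changes ran from -0.32 for Cpt2 to 0.50 for Acot2, and each except that of Ehhadh (0.44, SE 0.36) was smaller than its SE. Over the 4 ages together 0 passed without the runs (18 had an unadjusted p under 0.05), against 0.648% of all probe sets. With the block the brightest probe sets of Pdk4, Slc25a20, Eci1, Ech1 and Acot2 passed, among 11 member probe sets in all, against 5.97% of all probe sets. That count was 12 without replicate 3 at 28 months and moved by over 1.5 times without any of the other 15 arrays, to between 0 (without replicate 1 or 2 at 28 months) and 34 (without replicate 1 or 3 at 15 months), while the share of all probe sets ran from 0.381% to 14.3% over the 16 fits.

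The 15 month arrays split by hybridisation day. For 23 of the 27 genes both day 1 arrays (replicates 1 and 2) were above both day 2 arrays (replicates 3 and 4), for Cpt1a and Acsl3 both were below, and the median log2 difference was 2.20 for day 1 minus day 2. Over all probe sets tested 22.62% were above and 39.26% below, with a median of -0.19. Cpt1b had signals of 16228 and 10604 on day 1, against 838.8 and 829.3 on day 2. Cpt1a had signals of 804.8 and 879.3 on day 1, against 2611 and 2601 on day 2. Acaa2 had 26522 and 22015 on day 1, against 2406 and 3118 on day 2, and Pdk4 had 1540 and 1717 on day 1, against 204.8 and 202.7 on day 2. The day 2 values lay at or beyond the range of the 28 month arrays for Cpt1b, Cpt1a and Acaa2, and the day 1 values lay within or near that of the 3 month arrays. The fat score split in the same way at 15 months, with 12.84 and 12.53 on day 1 and 10.14 and 10.16 on day 2. Replicate 4, with the high beta-actin ratio, and replicate 3, with a ratio among those of the other arrays, lay close to each other in all of these values. The part of the fat score in this split was not tested.

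The days differed less at the other ages. At 6 months both day 1 arrays were above both day 2 arrays for 23 genes, with a median of 0.87, against 21.41% of all probe sets and a median of -0.13, and fat scores were 12.81 and 13.09 on day 1 and 11.69 and 12.40 on day 2. At 3 months this held for 10 genes, with a median of 0.44, against 17.22% of all probe sets. At 28 months it held for 6 of the 27, with a median of 0.37, against 16.51% of all probe sets, a share near that of the listed genes. Between 28 and 3 months the median change of the 27 genes was -1.26 on day 1 and -1.08 on day 2, and 26 genes kept their sign on both days. Between 15 and 3 months it was -0.01 on day 1 and -1.52 on day 2. Between 28 and 15 months it was -1.46 on day 1 and 0.43 on day 2, and 3 genes kept their sign on both days.

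Over both days 24 genes were lower and 3 higher at 15 than at 3 months, with a median of -0.71. In this comparison 0 members passed without the runs (0 had an unadjusted p under 0.05), against 0.0953% of all probe sets, and 0 passed with the block (17 had an unadjusted p under 0.05), against 0.191%. Between 28 and 15 months 25 were lower and 2 higher, with a median of -0.39, and 0 members and 0% of all probe sets passed in either fit (1 member probe set had an unadjusted p under 0.05 without the runs and 3 with them). Fitted with the fat score, the medians were 0.0321 at 15 against 3 months and -0.16 at 28 against 15 months.

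The split within 15 months resembled the change between 28 and 3 months gene by gene. These comparisons share no array. Across the 27 genes Pearson's r between the day 2 minus day 1 difference at 15 months and the 28 minus 3 month change was 0.884 and Spearman's rho was 0.914, and 26 genes had the same sign. Without Cpt1a r was 0.828 and rho 0.904. Over all 5244 probe sets r was 0.714 and rho 0.639, with 74.8% of the same sign. Genes are not independent, so these values describe the likeness and carry no test, and the fat score moved in both comparisons.

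**Figure D5:**
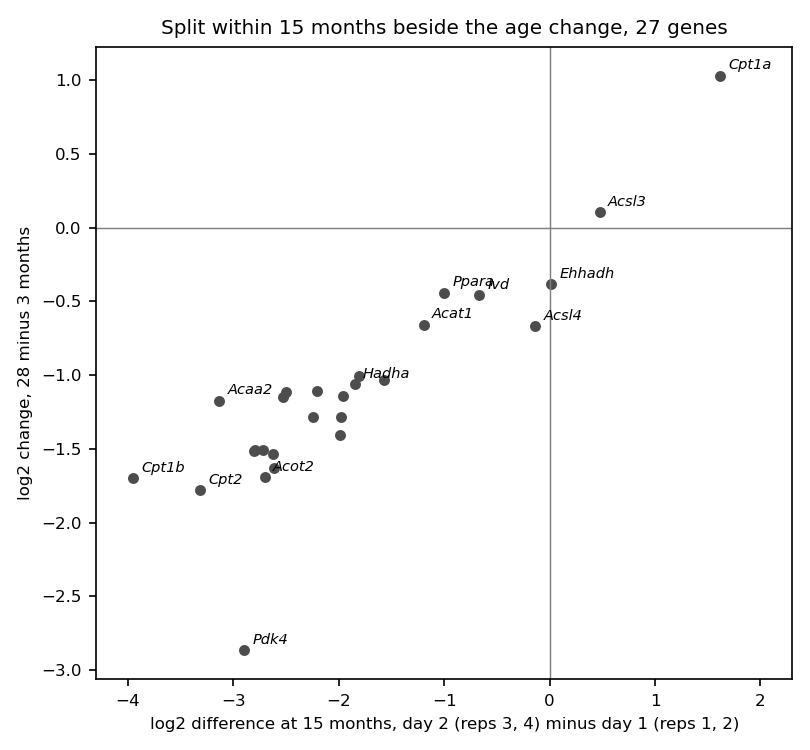
Each point is 1 of 27 genes, with the log2 difference at 15 months (day 2 minus day 1) on the horizontal axis and the log2 change at 28 against 3 months on the vertical axis. Most genes are negative on both axes, Cpt1a and Acsl3 are positive on both, and Pdk4 lies lowest on the vertical axis at -2.87.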

How the data were processed

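RNA from 16 rat aortas was hybridised to RG_U34A arrays, 1 per rat, with 5 ug of total RNA per labelling. The authors deposited 1 table of intensity values, 1 linear signal per probe set and array, made with MAS5 per the submitters' processing notes, for which those notes give no version. Arrays were already scaled, with trimmed means (2% cut at each end) of 1001.7 to 1002.0, so none was scaled again, and their number limits the precision. The deposited array records, of type other and with no score, gave the rat, day, fluidics station and chip of each array; their ages matched the labels on 16 of 16 arrays, and 0 pairs of arrays were identical.

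Of 8799 probe sets 59 were controls; of the rest 7006 had 1 gene symbol in the platform annotation, 308 several and 1426 none. Values were analysed as log2(signal + 16), on which changes of dim probe sets are understated. Control probe sets and those with a mean under the 40th percentile (7.31) were not tested, which left 5244. They were fitted with limma 3.58.1 in R 4.3.3 (lmFit, eBayes with a mean trend), with 1 mean per age, 12 residual degrees of freedom and Benjamini-Hochberg values over the 5244, all 2-sided. The pipeline was tested on simulated data. Permutation tests used SciPy 1.17.1. Each gene was named by its brightest probe set. All listed genes were named, and from each other list up to 6 genes past the threshold with the block, by size of change, or otherwise the 2 with the smallest p. The members, the lists and these choices were made with earlier results of these data known. Pmp22, a myelin protein, was dropped from the peroxisomal list after its value was seen. Promoter sequences are those of RefSeq (GRCr8).

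In the array records each replicate number is 1 fluidics station on 1 day, with 4 arrays, 1 per age, at 1 clock time, and this was the ground for the block, not the correlations, of which some were negative. The correlation of deviations from the age means had a median of 0.172 over 24 pairs of the same number (-0.315 to 0.628, 13 over 0.1) and of -0.034 over 72 pairs of other numbers and ages. Alternatives covered the pseudocount, the filter, normalization, the run, the day, array weights, the arrays in the fit, a cRNA note in the records and the fat score. The cRNA note stood on replicates 2 and 4 at 15 months and replicates 3 and 4 at 28 months, and on no younger array. Runs with 1 array left out of the blocked fit were added after the data were seen.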

Additional observations from a re-analysis of the deposited data

Results flagged for a closer look

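In 5 of 124 groups of 4 arrays, 1 array stood apart from the other three by Dixon's criterion at the 95% level, where chance gives about 1 in 20 groups. All values are log2(signal + 16). Pdk4, the fasting kinase, was at 4.80 on replicate 4 at 28 months, against 8.31 for the next lowest array of that age, and this array also had the highest beta-actin ratio, 3.82. The part of RNA quality in this value was not tested. Pdk4 was also lowest on replicate 4 at 6 months, at 8.97, against 10.64 for the next. Acadm, the medium-chain dehydrogenase, was at 13.03 on the same array, against 14.04 for the next. Acadl, the long-chain dehydrogenase, was at 13.53 on replicate 3 at 28 months, above 12.66 for the next array. Bdh1, which was too dim to be tested, was at 4.88 on replicate 4 at 28 months, against 5.17 for the next.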

How the results depend on the processing

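No member passed at 28 against 3 months in the fit without the runs, and that count (with the share of all probe sets that passed in parentheses) was 25 with the replicate block (12.3%), 11 with hybridisation day as a term (8.87%), 31 on day 1 alone (13.3%), 18 with only the ages compared (10.2%), 19 with array weights (14.4%), 0 to 1 with 1 array left out (1 without replicate 4 at 3 months, 1.81%), and, as alternatives added after the data were seen, 9 with the block without the arrays of high beta-actin ratio (8.75%) and 34 with the block and only the ages compared (14.4%). At 28 against 6 months the count of 0 became 1 with the filter at the 60th percentile (2.86%), 34 with the replicate block (17.4%), 31 with the day (16%), 40 on day 1 alone (24%), 26 with only the ages compared (11.4%), 39 with array weights (28.2%), and 0 to 20 with 1 array left out (20, or 14%, without replicate 4 at 6 months; 5, or 5.59%, when replicate 1 at 15 months was dropped); the added blocked fits gave 27 without the arrays of high beta-actin ratio (15.6%) and 35 with only the ages compared (16.8%). At 28 against 15 months it was 34 on day 1 alone (9.8%), and over the 4 ages it was 11 with the replicate block (5.97%), 1 with the day (2.77%), 36 on day 1 alone (13.9%) and 19 with array weights (13.9%). The median change of the member probe sets at 28 against 3 months was -1.14; it became -0.049 once the fat score entered as a covariate and -0.13 with the replicate block and the fat score. The fat score difference was -1.55 to -1.05 with 1 array left out, always with p = 0.0571, the smallest that 3 against 4 arrays allow by the exact permutation test. Under the fat score 9 genes changed sign, Acsl3 (-0.16), Cpt1b (0.24), Acsl1 (0.15), Acads (0.039), Cpt2 (0.11), Ppara (0.15), Etfa (0.18), Ech1 (0.073) and Acaa2 (0.49). With the block and the fat score 7 did, Acat1 (0.18), Acsl3 (-0.21), Cpt1b (0.35), Acsl1 (0.18), Acads (0.023), Etfa (0.065) and Acaa2 (0.42). Acsl3 was also at -0.078 on day 1 alone and at -0.0008 without the arrays of high beta-actin ratio, and ran from -0.0008 (without replicate 4 at 28 months) to 0.19 with 1 array left out. The cause of these shifts was not tested. The pseudocounts of 1 and 64, quantile normalization, no filter, no mean trend, day 2 alone and the cRNA note changed neither the sign nor the call of any of the 27 genes at 28 against 3 months. The replicate block changed no other call than those given beside the results.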

Other observations

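Further genes of the adipocyte, PPAR target and synthesis and supply lists, outside the listed pathway, were lower at 28 than at 3 months as well. Gpd1, the glycerol phosphate dehydrogenase of triglyceride synthesis, changed by -2.66 (SE 1.15), with an adjusted p of 0.194 and 0.0264 with the block. Acly (-2.04) and Me1 (-1.98), which supply acetyl-CoA and NADPH for lipogenesis, passed with the block, as did the water and glycerol channel Aqp7 (-1.61). So did the lipid droplet protein Plin2 (-1.49) and the fatty acid transporters Slc27a1 (-1.31) and Slc27a2 (-1.18), which are not on the adipocyte list. In that fit 5.7% of all probe sets passed as lower. In smooth muscle, the markers with the smallest p were phospholamban, Pln (1.73), and desmin, Des (1.34), with adjusted p-values of 0.129 and 0.162 and of 0.053 and 0.0513 with the block. Among striated muscle markers Myh1 changed by -0.77 (adjusted p = 0.162) and Myl7 by -0.68 (adjusted p = 0.184). Albumin, Alb, of the liver list changed by 0.55 (adjusted p = 0.64), and Umod of the kidney by -0.35 (adjusted p = 0.534).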
